A study of Mus musculus with 4 samples.

Results

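The genes described here encode 36 factors of nucleolar ribosome biogenesis, fixed as a list of symbols and sorted by the step at which each acts. They were looked up in whole-transcript Affymetrix array data from mouse Thy1+ LSK cells, a bone marrow fraction rich in haematopoietic stem cells that lacks lineage markers and bears Sca-1, Kit and Thy1. Each member was taken from the row whose annotation names that gene alone, and of several such rows the one with the highest mean over the 4 arrays. This gave 34 of the 36 members among 22180 genes. Fbl, the methyltransferase of box C/D particles, and Mrto4, a large-subunit factor, lie on rows that name other genes as well and have no value here. Of the 34, 33 passed the limit for dim genes, a mean log2 signal of 4.835, and stand among the 16635 genes tested. Exosc5, a core subunit of the RNA exosome, fell below it.

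The arrays form 2 groups of 2. One group came from mice with intact Nol3 (Nol3+/+) and the other from mice without Nol3 that the sample labels mark as MPN (Nol3-/- MPN), here understood to mean myeloproliferative neoplasm. By the title of the series, MPN could also apply to both genotypes. All mice were C57BL/6, between 11 and 18 months old, and the cells were sorted without culture or treatment. Nothing in the labels says whether an array holds RNA of 1 mouse or of a pool, and how the Nol3 allele was made is not given in the sources used here, so p-values measure only the spread between these arrays, which may be technical.

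Ribosomes are assembled in the nucleolus. RNA polymerase I transcribes the precursor of the ribosomal RNAs there, small nucleolar RNA particles guide its methylation and pseudouridylation, and large complexes cut and fold it into the small and the large subunit. The genes of these factors are usually expressed together and are among the best-known targets of the transcription factor Myc, and haematopoietic stem cells are known to keep a low rate of protein synthesis compared with their dividing progeny.

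Since many of these genes are known targets of Myc, the promoters were searched for the canonical E-box, CACGTG, which reads the same on both strands and is the sequence that Myc and Max bind. RefSeq promoter windows (GRCm38.p6, 250 bases before to 50 after each start, 300 in all) were found for 31 of the 36 members and not for Npm1, Rrs1, Bop1, Rrp12 and Fbl. CACGTG was found in 7 of the 31 (22.6%), against 2187 of 27025 genes (8.09%), counting a gene when any of its windows held the motif. A second motif, TATAAA on either strand, was found in Dkc1, Pes1 and Ppan, 9.68% of the members, against 15.7% of genes. The median GC content was 58.3% over the 33 member windows and 52.7% over all 32851 windows. These matches describe the letters only, and the members differ from all genes in base composition as well. The 7 stretches with CACGTG are printed 5′ to 3′ on the strand of the gene, with the motif in capitals, to show which members carry it and where.
Imp4, chr1:34439696-34439725, plus strand: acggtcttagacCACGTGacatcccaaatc
Nop2, chr6:125131811-125131840, plus strand: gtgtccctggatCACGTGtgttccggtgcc
Exosc5, chr7:25659097-25659126, plus strand: taaacgctgagcCACGTGctagggccaact
Utp18, chr11:93885769-93885798, minus strand: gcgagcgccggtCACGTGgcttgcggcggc
Pes1, chr11:3963965-3963994, plus strand: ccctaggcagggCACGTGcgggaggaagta
Wdr43, chr17:71616220-71616249, plus strand: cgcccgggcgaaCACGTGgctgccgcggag
Utp20, chr10:88826765-88826789, minus strand: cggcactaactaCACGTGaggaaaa

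In the first 4 of these the motif begins 121, 60, 44 and 20 bases before the annotated start, and in Pes1, Wdr43 and Utp20 it begins at base 3, 18 and 38 of the transcript. Pes1, Wdr43 and Utp20 are among the members that read higher in both Nol3-/- MPN arrays, whereas Imp4, Nop2, Utp18 and Exosc5 had overlapping groups. Of all tested members 36.4% read higher in both, and of all tested genes 19.7%. The other higher members, Polr1b, Nop56, Nop58, Gar1, Ncl, Noc4l, Nop16, Gnl3 and Pa2g4, have no CACGTG in their windows. A link between motif and direction was not tested. Nop16, the member with the smallest p, has no CACGTG in its window. The 250 bases before its start are shown because no other member reached an unadjusted p under 0.05.
Nop16, chr13:54590075-54590324, minus strand: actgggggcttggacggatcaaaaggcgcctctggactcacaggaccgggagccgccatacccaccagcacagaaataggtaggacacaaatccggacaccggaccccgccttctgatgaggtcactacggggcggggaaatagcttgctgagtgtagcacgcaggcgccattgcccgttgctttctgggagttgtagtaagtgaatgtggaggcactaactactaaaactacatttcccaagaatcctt

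The targeted gene Nol3 read 5.31 and 5.52 in Nol3+/+ against 5.38 and 5.50 in Nol3-/- MPN on the log2 scale (difference 0.02, SE 0.14, limma adjusted p = 0.995), and since the position of the deletion relative to the probes is not given, this row does not check the labels. Nip7 and Nob1 lie on chromosome 8, as Nol3 does. Sex-linked signal followed the same division of arrays as genotype and disease label, with Xist at 5.43 and 5.28 in Nol3+/+ against 10.9 and 10.7 in Nol3-/- MPN and with Eif2s3y, Uty and Kdm5d lower in both Nol3-/- MPN arrays, so genotype, disease label and sex cannot be told apart, and Dkc1 is X-linked. Nol3+/+ replicate 1 stood apart, correlating with the other arrays across tested genes at r from 0.899 to 0.911, against 0.929 to 0.949 among the rest, values across genes that share each array. Of all tested genes, 4 passed the adjusted threshold of 0.05 (0.024%).

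The members leaned toward higher signal in Nol3-/- MPN, and none passed the test over all genes. The median log2 difference of the 33 tested members was 0.17, against 0.01 over all tested genes. In 12 members both Nol3-/- MPN arrays lay above both Nol3+/+ arrays, which is 36.4% of members against 19.7% of all tested genes. In 2 members, Rrp9 and Bop1, both lay below, 6.06% against 15.9%. The groups overlapped in 19. By sign alone, 25 members (75.8%) had a difference above 0, against 51.7% of tested genes, and 7 had one below 0, while that of Bysl was 0.00. With limma 0 members passed the adjusted threshold, and the smallest adjusted p of a member was 0.841. At an unadjusted limma p under 0.05 there was 1 member, Nop16, in the higher direction, where 3.73% of all genes stood, and 0 in the lower direction, where 2.07% did. The members are part of one pathway and were measured on the same arrays, so they are not independent of each other. In bulk RNA of sorted cells, fewer cells that express a gene and less RNA per cell cannot be told apart.

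**Figure D1:**
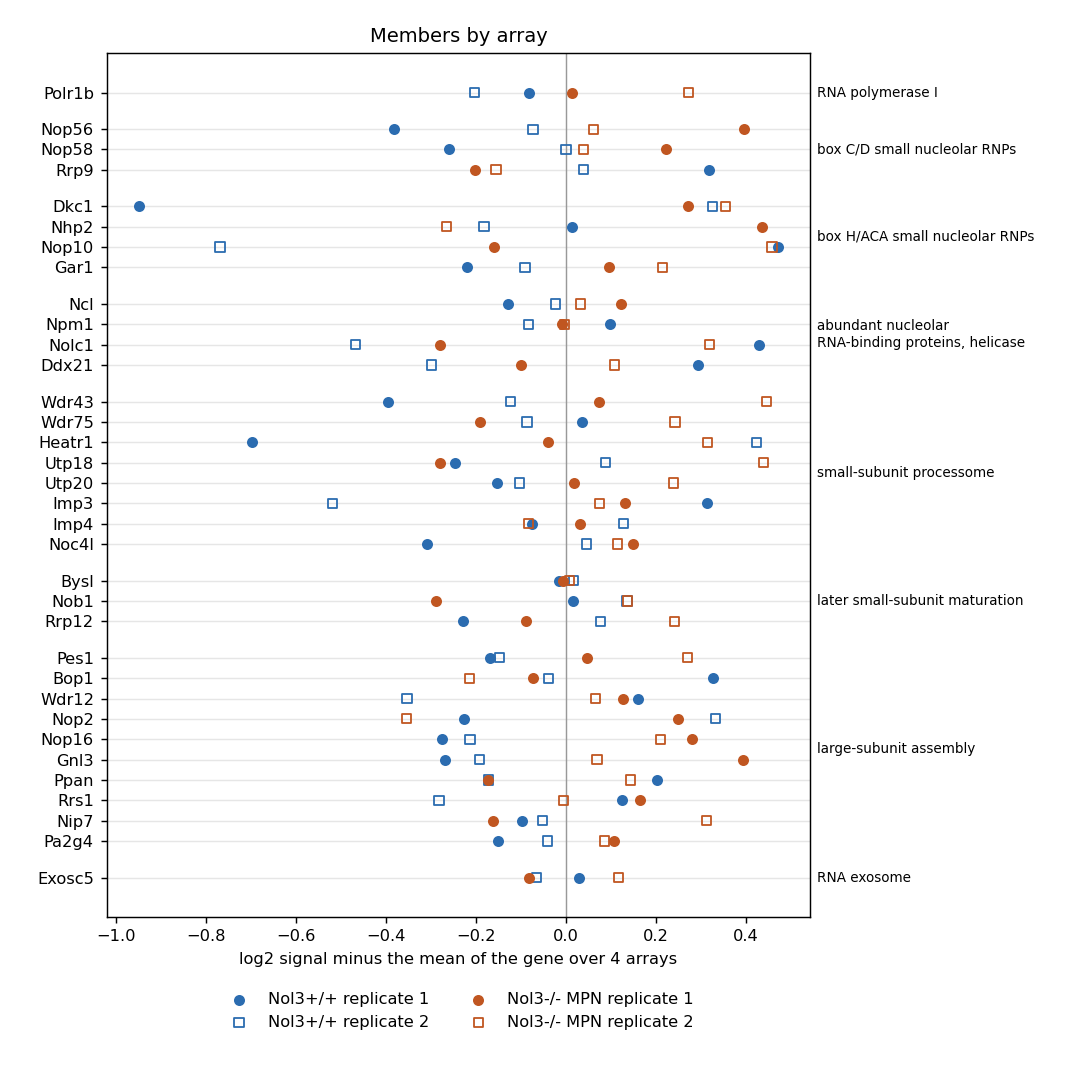
Each row is 1 of the 34 members with a value, grouped by role, and each point is 1 array, plotted as its log2 signal minus the mean of that gene over the 4 arrays (blue, Nol3+/+; orange, Nol3-/- MPN; filled circles, replicate 1; open squares, replicate 2). Orange points lie to the right of both blue points in 12 tested members and to the left of both in 2, and the widest gap between replicates is that of Dkc1 and Nop10 in Nol3+/+.

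The difference between replicates was as large as the difference between groups for most members. The median absolute difference between the Nol3+/+ arrays was 0.27 and that between the Nol3-/- MPN arrays 0.22, while the median absolute group difference was 0.19. Over all tested genes these medians were 0.20, 0.18 and 0.15. In 20 of the 33 members (60.6%) the Nol3+/+ arrays differed from each other by more than the groups did, close to the 61.4% of all tested genes. Nol3+/+ replicate 1 held the lowest value for 15 members (45.5%, against 29.5% of all tested genes) and the highest for 9. The 95% intervals of 25 members lay wholly within 1 log2 unit of 0, so for these a 2-fold difference in either direction lies outside the interval. Those of Dkc1, Nop10, Heatr1, Nop56, Wdr43, Imp3, Gnl3 and Nolc1 did not.

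**Figure D2:**
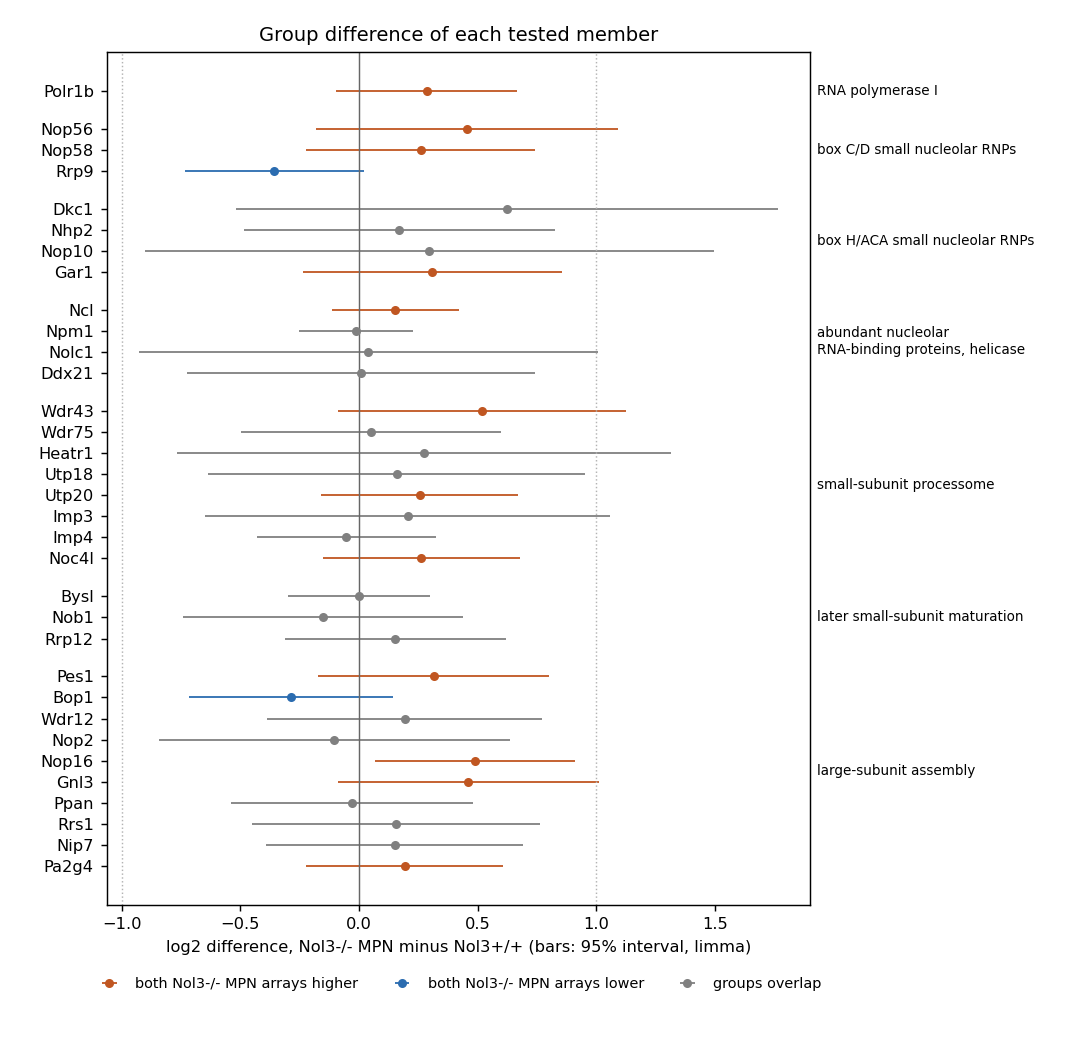
The log2 difference (Nol3-/- MPN minus Nol3+/+) of the 33 tested members with its 95% limma interval, coloured by whether the arrays of the groups overlap, with dotted lines at 1 log2 unit either side of 0. The interval of Nop16 excludes 0, that of Rrp9 ends just above 0 at 0.02, and the widest are those of Nop10, from -0.904 to 1.498, and Dkc1, from -0.52 to 1.77.

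Transcription of the ribosomal RNA precursor is represented by Polr1b, the second-largest subunit of RNA polymerase I. It read 5.34 and 5.21 in Nol3+/+ against 5.43 and 5.69 in Nol3-/- MPN, and the groups did not overlap. The log2 difference was 0.29, SE 0.15 (limma adjusted p = 0.841). Ribosomal RNA transcripts themselves had 0 rows of 1 gene symbol, so the product of the enzyme has no value here.

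The box C/D particles carry guide RNAs for methylation of ribosomal RNA. Nop56, a core scaffold protein of these particles, read 7.01 and 7.32 in Nol3+/+ against 7.79 and 7.45 in Nol3-/- MPN. Its partner Nop58 read 9.65 and 9.91 against 10.13 and 9.94, the second Nol3+/+ array lying just under the second Nol3-/- MPN array. The differences were 0.46 (SE 0.25) and 0.26 (SE 0.19), both without overlap between groups. Rrp9, the protein specific to the U3 particle that starts small-subunit processing, ran the other way. It read 5.71 and 5.44 in Nol3+/+ against 5.19 and 5.24 in Nol3-/- MPN, a difference of -0.36 with an interval from -0.74 to 0.02. None of these passed, with limma adjusted p between 0.841 and 0.869. Nop56 has 2 further, dimmer rows that disagree in sign with each other, at -0.28 and 2.23. The second of these read 7.91 in Nol3-/- MPN replicate 2 and between 3.39 and 3.61 in the other arrays, so it rests on 1 array.

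The box H/ACA particles guide pseudouridylation, and their 4 core proteins, Dkc1, Nhp2, Nop10 and Gar1, all had differences above 0, with a median of 0.30. Gar1 read 7.22 and 7.34 in Nol3+/+ against 7.53 and 7.65 in Nol3-/- MPN, which puts both arrays of one group above both of the other (difference 0.31, SE 0.21, limma adjusted p = 0.868). For the other 3 the groups overlapped. Dkc1, the pseudouridine synthase, read 6.88 and 8.16 in Nol3+/+ against 8.10 and 8.19 in Nol3-/- MPN. Its difference of 0.62 is the largest among the members and rests on Nol3+/+ replicate 1, without which it was -0.01. Nop10, the smallest of the 4 proteins, read 9.47 and 8.23 against 8.84 and 9.45, so each group held a high and a low array, and its difference of 0.30 became -0.32 when Nol3+/+ replicate 2 was left out and -0.01 when Nol3-/- MPN replicate 2 was. Nhp2, an RNA-binding protein of the particle, differed by 0.17, a value that was -0.18 without Nol3-/- MPN replicate 1.

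The abundant nucleolar RNA-binding proteins and their helicase lay close to 0, with a median difference of 0.02. Ncl, or nucleolin, which binds nascent precursor RNA, read 11.43 and 11.53 in Nol3+/+ against 11.68 and 11.59 in Nol3-/- MPN, with no overlap but a difference of only 0.15 (SE 0.11). Npm1, or nucleophosmin, a chaperone often mutated in human myeloid leukaemia, read 12.27 and 12.09 against 12.17 and 12.17. Its difference of -0.01 had an interval from -0.25 to 0.23, the narrowest of all members, and it was 0.06 after quantile normalization. Ddx21, an RNA helicase that couples polymerase I transcription to processing, read 8.25 and 7.66 against 7.86 and 8.07, and the Nol3-/- MPN arrays lay between those of Nol3+/+. Nolc1, a phosphoprotein that shuttles between the nucleolus and Cajal bodies, differed by 0.04 with replicate SDs of 0.63 and 0.42. For Ddx21 a second, dimmer row gave 0.59 where the row used gave 0.01.

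The small-subunit processome is the large assembly that forms on the 5′ part of the precursor, and 7 of its 8 members had differences above 0, with a median of 0.23. Wdr43, one of its WD-repeat proteins, read 8.75 and 9.02 in Nol3+/+ against 9.22 and 9.59 in Nol3-/- MPN. Its difference of 0.52 (SE 0.24, limma adjusted p = 0.841) was the second largest of all members after that of Dkc1, and was 0.33 without Nol3-/- MPN replicate 2. Utp20, a large helical-repeat protein, read 5.88 and 5.93 against 6.05 and 6.27, and Noc4l, a partner of Nop14, read 5.12 and 5.48 against 5.58 and 5.55. Both had no overlap between groups, with differences of 0.26 and 0.26. Heatr1, Imp3 and Utp18 differed by 0.27, 0.21 and 0.16 with overlapping groups, and each of these changed sign when 1 array was left out. Wdr75, a protein of the subcomplex that links transcription to processing, read 6.35 and 6.23 against 6.13 and 6.56. Imp4, which joins the U3 RNA to the precursor, was the exception in sign at -0.05.

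Of the 3 later small-subunit factors, 1 lay above 0, 1 below and 1 at 0.00. Bysl, needed for the last steps of the small subunit, read 4.96 and 4.99 in Nol3+/+ against 4.97 and 4.99 in Nol3-/- MPN, just above the limit for dim genes. Rrp12, an export factor, read 5.10 and 5.41 against 5.24 and 5.57, so replicate 2 was the higher array in each group. Nob1, the endonuclease that makes the mature end of the small-subunit RNA, differed by -0.15. All 3 overlapped between groups.

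Among the 10 tested large-subunit factors, 7 had differences above 0 and 3 below, with a median of 0.17. Nop16, a small nucleolar protein of early large-subunit particles, read 6.02 and 6.08 in Nol3+/+ against 6.58 and 6.50 in Nol3-/- MPN. The groups did not overlap, and their SDs of 0.04 and 0.05 rest on 2 arrays each. The difference was 0.49 (SE 0.17), and its interval ran from 0.07 to 0.91 (limma adjusted p = 0.841 over all genes). Gnl3, or nucleostemin, a nucleolar GTPase abundant in stem and cancer cells, read 8.93 and 9.01 against 9.59 and 9.27 (difference 0.46, SE 0.22). Pa2g4, a nucleolar growth regulator, read 9.81 and 9.92 against 10.07 and 10.04, a difference of 0.19 with no overlap.

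The proteins Pes1, Bop1 and Wdr12 form the PeBoW complex, which large-subunit RNA processing needs, and their genes did not run together. Pes1 read 6.43 and 6.45 in Nol3+/+ against 6.64 and 6.86 in Nol3-/- MPN, both higher. Bop1 read 5.60 and 5.24 against 5.20 and 5.06, both lower. Wdr12 overlapped between groups, with a difference of 0.19. The differences of Pes1 and Bop1, 0.32 and -0.29, had intervals that both include 0, and the difference between these genes was not tested. Ppan, a factor of early large-subunit assembly, read 5.89 and 5.52 against 5.52 and 5.83, with equal lowest readings in the groups to 2 decimals. The other large-subunit members Rrs1, Nip7 and Nop2 lay at 0.16, 0.15 and -0.10 with overlapping groups. In the RNA exosome, Exosc5 read 4.49 and 4.39 against 4.38 and 4.58, values that cannot be separated from background and were not tested.

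Several members enclose small nucleolar RNA genes, a class usually cut from the introns of the host transcript. By RefSeq gene positions (GRCm38.p6, strand not compared), 10 such genes lie within 5 of the members, and 9 have a row, of which 6 passed the limit for dim genes. Wdr43 holds Snord92 and Snord53, whose rows ran in opposite directions. Snord92 read 3.96 and 3.81 in Nol3+/+ against 8.26 and 7.74 in Nol3-/- MPN, a difference of 4.12, SE 0.22 (limma adjusted p = 0.0329). Its Nol3+/+ signals lie under the limit for dim genes, and its mean passed that limit only through the Nol3-/- MPN signals. The difference is therefore of deposited signals and not a measured change in amount. The size of the difference held while the call did not. The call was lost with X- and Y-linked genes left out (limma adjusted p = 0.0648) and with the replicate number as a block (0.0927), where the difference stayed at 4.12, and without either Nol3-/- MPN replicate 1 (0.345, difference 3.86) or replicate 2 (0.169, difference 4.38). Snord53 read 10.20 and 7.67 against 7.41 and 6.70, a difference of -1.88 that was -0.61 without Nol3+/+ replicate 1. The host Wdr43 itself differed by 0.52.

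The guests of the other hosts had differences of either sign. Ncl differed by 0.15, while its guests Snora75 and Snord82 differed by -1.03 and -1.26. Snora75 read 10.57 and 10.51 in Nol3+/+ against 8.76 and 10.27 in Nol3-/- MPN, so the low value is that of Nol3-/- MPN replicate 1, and without that array the difference was -0.27. Snord82, at 8.14 and 9.45 against 6.75 and 8.31, differed by -0.48 without the same array. Snord11 within Nop58 read 9.02 and 6.78 against 9.99 and 9.01, with only Nol3+/+ replicate 2 low, and its difference of 1.60 was 0.49 without that array. Snord19 within Gnl3 read 7.997 in Nol3+/+ replicate 1 and 3.85, 4.79 and 4.74 in the other arrays. Its difference of -1.16 was 0.92 without Nol3+/+ replicate 1 and -3.23 without Nol3+/+ replicate 2. Only Nol3+/+ replicate 1 lay above the limit for dim genes and carried the mean of Snord19 over it, so the -3.23 rests on that array. Snord110 within Nop56, Snord70 within Nop58 and Snord69 within Gnl3 were dim and not tested, at -0.67, 0.32 and -0.03. Snord70 read 3.57 and 3.84 against 3.85 and 4.19, higher in both Nol3-/- MPN arrays as its host Nop58 was. All 4 of its values lie under the limit for dim genes. Snord110 read 5.24 and 4.46 against 4.06 and 4.29, lower in both Nol3-/- MPN arrays while its host Nop56 was higher. How many probes the rows of these guests hold, and whether they read the small RNA alone, was not examined. None but Snord92 passed the test over all 4 arrays, and the filter kept Snord92 only through the group where it read high.

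**Figure D3:**
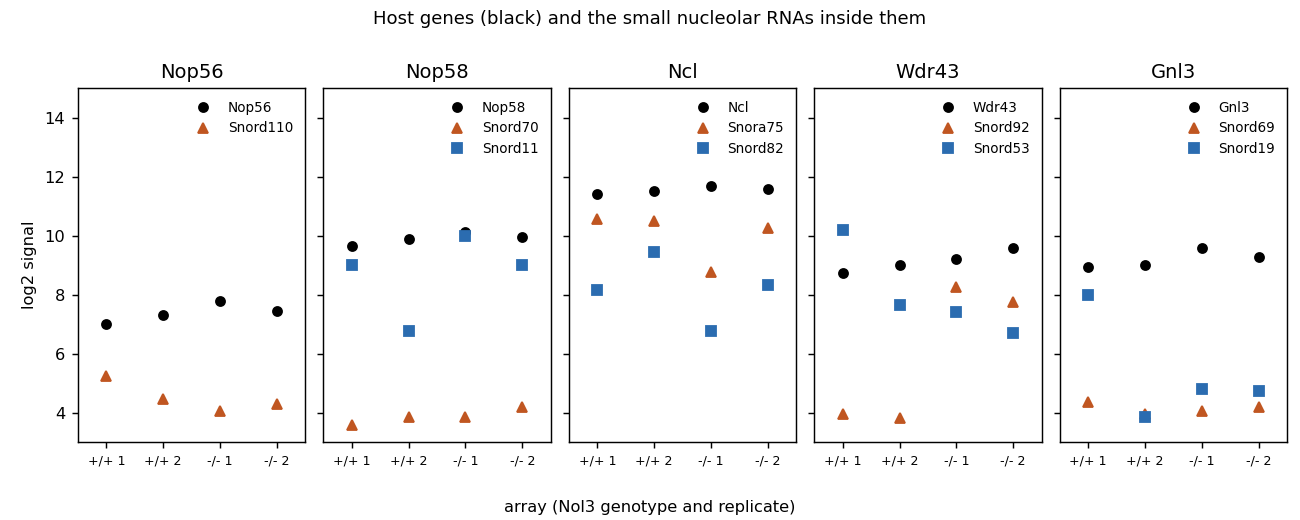
Log2 signal in each array of the 5 host members (black circles) and of the small nucleolar RNA genes inside them (triangles and squares), with 1 panel for each host. The hosts stay within 0.84 log2 units over the arrays, while Snord92 lies at 3.96 and 3.81 in Nol3+/+ and at 8.26 and 7.74 in Nol3-/- MPN; levels of different genes are not comparable, since each has its own probes.

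The rest of the pathway and its regulators were read from lists of 139 further genes, of which 124 had a row and 119 were tested. The 119 include 6 regulators described below, among them Myc. Of these 6, 1 was higher and 3 were lower in both Nol3-/- MPN arrays. Both arrays of Nol3-/- MPN were higher for 38 of the 119 (31.9%) and lower for 12 (10.1%). Over all tested genes these shares were 19.7% and 15.9%, and the median difference of the 119 was 0.09. At an unadjusted limma p under 0.05 there were 9 genes, all higher (7.56%, against 3.73%), and 0 passed after adjustment, with a smallest adjusted p of 0.841.

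The 9 were spread over most steps. Large-subunit factors gave 4 of 43. Ddx18, a DEAD-box helicase, read 8.42 and 8.72 in Nol3+/+ against 9.57 and 9.44 in Nol3-/- MPN (difference 0.93, SE 0.22). Nmd3, the export adaptor of the large subunit, read 9.69 and 9.36 against 10.22 and 10.30 (0.73, SE 0.19). Nvl, an AAA ATPase that releases factors from large-subunit particles, and Rpf1, an assembly factor, differed by 0.91 and 1.91. Rpf1 read 5.24 and 7.35 against 7.91 and 8.50, so its Nol3+/+ arrays lay further apart than the groups.

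Small-subunit factors gave 2 of 36, and their group median was 0.18. Utp11, a processome protein, read 8.17 and 7.94 in Nol3+/+ against 8.81 and 8.80 in Nol3-/- MPN, and Ddx52, a helicase, read 5.22 and 5.38 against 5.84 and 5.72. The remaining 3 genes came from 3 lists. Taf1b, a subunit of the selectivity factor of RNA polymerase I, read 8.30 and 8.44 against 9.09 and 9.06 (difference 0.71) in a list whose median was 0.03. Exosc9, an exosome subunit, read 5.96 and 6.39 against 6.81 and 6.82 (0.64) in a list with a median of 0.19. Snu13, the protein that binds the kink-turn of box C/D RNAs, read 6.15 and 6.81 against 8.09 and 7.29 (1.21, and 0.63 as the mean of its rows), while its list of assembly factors had a median of -0.08, with 4 of 11 above 0.

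**Figure D4:**
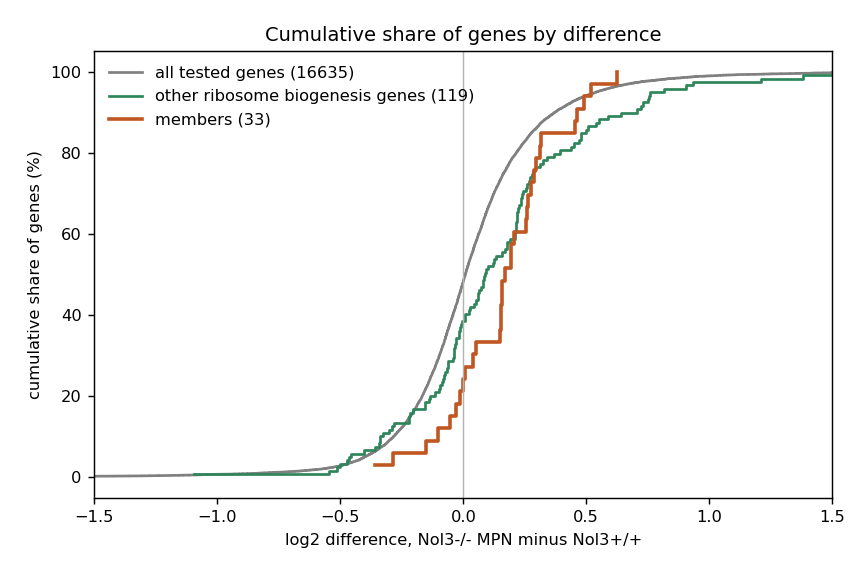
Cumulative share of genes (y axis, %) by log2 difference, Nol3-/- MPN minus Nol3+/+ (x axis, drawn from -1.5 to 1.5), for all 16635 tested genes, the 119 further listed genes and the 33 members. The 119, named other ribosome biogenesis genes in the key, include 6 regulators such as Myc and Mdm2. The curve of the members lies to the right of that of all genes over most of the range, with medians of 0.17 and 0.01, and the largest member difference is 0.62, so the members hold no difference of 1 log2 unit.

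The regulators around the nucleolus differed in direction. Myc, of which many members are known targets, read 8.16 and 7.93 in Nol3+/+ against 8.55 and 8.62 in Nol3-/- MPN. Its difference was 0.54 (limma adjusted p = 0.841), with limits of -0.03 and 1.11 on either side of 0. Whether Myc has a part in the lean of the members was not tested. Mdm2, Cdkn1a and Cdkn2a, the p53 ligase, a p53 target and the locus of an Mdm2 inhibitor, were lower in both Nol3-/- MPN arrays, with differences of -0.50, -0.55 and -0.30 and intervals that all include 0. Rpl5 and Rpl11, which bind Mdm2 when ribosome assembly stalls, lay at -0.03 and 0.08 with overlapping groups. Trp53 was 1 of the 15 listed genes without a row of 1 symbol.

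Markers of other cells and of division were read on the same arrays. The counts below stand against 19.7% of all tested genes higher in both Nol3-/- MPN arrays and 15.9% lower. These lists are short and were not tested as sets. Markers of dividing cells had 4 of 7 higher in both Nol3-/- MPN arrays and 0 lower, with a median of 0.27, and the log2 of their summed signal was 10.75 and 10.78 in Nol3+/+ against 11.10 and 10.97 in Nol3-/- MPN. Granulocyte and monocyte markers had 0 of 8 higher and 3 lower with a median of -0.25. Their summed level, which takes in the dim genes and so covers 11, was 10.38 and 10.90 against 10.36 and 10.48. S100a8, S100a9 and Ltf were the lower ones, at -0.86, -0.83 and -0.27. With overlapping groups, Camp and Ngp lay at -0.44 and -0.24, and Mpo, Lyz2 and Elane at 0.48, 0.24 and 0.07. Csf1r, Itgam and Ly6g were dim, and Ly6g read 4.43 and 4.24 against 4.96 and 5.38, higher in both Nol3-/- MPN arrays. Erythroid markers had 1 of 5 higher and 2 lower, with summed levels of 9.68 and 9.54 against 9.62 and 9.77. B cell markers had 3 of 4 higher. Their summed level over 5 genes, the dim Ms4a1 included, was 7.71 and 7.71 against 7.90 and 7.99. The other lists were of sort and stem cell surface genes, megakaryocytes, T and NK cells, mast cells and basophils, and stroma. T and NK cell markers had 3 of 6 higher and 2 lower, with differences between -0.19 and 0.13. All of these lists had medians between -0.04 and 0.02, with members on both sides of 0. Among them Cd48, a progenitor surface gene, read 6.42 and 7.76 against 8.99 and 8.01 (difference 1.41), and Pf4, a platelet chemokine gene, read 4.68 and 4.80 against 5.14 and 5.52 (0.59). Both were higher in both Nol3-/- MPN arrays, with limma adjusted p of 0.841. Of the sort genes, Kit read 8.07 and 8.10 in Nol3+/+ against 8.38 and 7.39 in Nol3-/- MPN, Thy1 lay between 4.64 and 5.24 around the limit for dim genes, and Ly6a had no row of 1 symbol. Array signals have no true zero, so no marker can be said to be absent. The part of dividing cells, of other cell types and of sex in the lean of the members was not tested.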

How the data were processed

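RNA was taken up on a micro column kit, amplified isothermally with a single primer and biotin-labelled, per the labels' protocols. The submitters' processing notes name Affymetrix Expression Console and Transcriptome Analysis Console, with version and normalization not given in the sources used here. In all, 41345 rows of normalized values were deposited by the authors, taken as log2 signals from their range, since the base is not stated. Of these rows, 23521 had 1 gene symbol in the platform annotation, 1814 several and 16010 none. Genes whose mean lay under the 25th percentile were left out as dim, which keeps a gene that is bright in 1 group only. All 16635 remaining genes were fitted together with limma 3.58.1 in R 4.3.3 (eBayes with a variance trend, Benjamini-Hochberg adjustment). A run on simulated data used independent genes, no outlying array and no sex difference, so it checks the code and not these data. Low signals were not set apart from background, and precision is limited by the number of arrays.

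The members and lists were chosen with earlier results of these data known. Arrays were printed for members whose groups did not overlap and for the members with the smallest and largest p of each step; Dkc1 and Npm1 were added after their values were seen. Within groups, the differences between replicate 1 and 2 correlated across genes at r = 0.05, so the numbers were not used as pairs. The 13 alternatives covered scaling, filters, variance models, row choice, sex chromosomes, the replicate block and each array left out.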

Additional observations from a re-analysis of the deposited data

How the results depend on the processing

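With 2 arrays per group the limits are wide, and leaving out an array leaves a lone array that is assumed to vary like the other group. In every alternative with all arrays 0 members passed the adjusted threshold. Over all 13 alternatives the median member difference stayed between 0.13 and 0.25. The median signal of the members was 6.43 and 6.45 in Nol3+/+ against 6.58 and 6.92 in Nol3-/- MPN. The SD of these medians, pooled over the groups, was 0.17 and came mostly from the gap between the Nol3-/- MPN arrays. The shift of the median difference was smaller than this SD. With all arrays, between 11 and 14 members were higher in both Nol3-/- MPN arrays, against 18.0% to 21.3% of all genes. The 11 are of 28 members, with genes under the 50th percentile left out, and the 14 are of 33. With 1 array left out the higher count lay between 14 and 20 of 33, and the lower count between 5 and 9. Of all genes, 31.9% to 37.7% were higher and 26.3% to 35.8% lower in those fits. Without genes under the 50th percentile, which removes Rrp9 and Bop1, the lower count was 0 of 28, against 14.8% of all genes. The count of all genes past the adjusted threshold was 0 with the replicate block, 0 with X- and Y-linked genes left out, and 0 to 39 with 1 array left out. The replicate block changed no call of a member; it ended that of Snord92.

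Of 411 values of the members other than Bysl under alternatives, 381 kept their direction and 30 turned, in 18 members, all without a call, and 14 members never turned. The replicate block, the variance models, the filters and leaving out X- and Y-linked genes cannot change a log2 difference in this design. The mean of all rows changes it only for genes with several rows. Much of the 381 was therefore fixed in advance, and 26 of the 30 turns came with 1 array left out. Bysl, at 0.00, had no direction to keep and ranged from -0.016 to 0.016 with 1 array left out. Npm1 was 0.059 after quantile normalization and 0.017 as the mean of its rows, and Nolc1 and Ddx21 were -0.026 and -0.095 after quantile normalization. With 1 array left out, the log2 difference ranged from -0.014 to 1.26 for Dkc1, -0.18 to 0.52 for Nhp2, -0.32 to 0.92 for Nop10, -0.10 to 0.077 for Npm1, -0.41 to 0.49 for Nolc1, -0.29 to 0.30 for Ddx21, -0.16 to 0.27 for Wdr75, -0.29 to 0.83 for Heatr1, -0.20 to 0.52 for Utp18, -0.21 to 0.62 for Imp3, -0.15 to 0.049 for Imp4, -0.36 to 0.062 for Nob1, -0.012 to 0.32 for Rrp12, -0.065 to 0.45 for Wdr12, -0.41 to 0.20 for Nop2, -0.22 to 0.16 for Ppan, -0.046 to 0.36 for Rrs1, -0.087 to 0.39 for Nip7 and -3.23 to 0.92 for Snord19. The cause was not tested.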
